A study of Mus musculus with 4 samples.

Results

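The JAK kinases and the SOCS family are the enzymes and the feedback inhibitors of cytokine receptor signalling. The members described here are the kinases Jak1, Jak2, Jak3 and Tyk2 and the inhibitors Socs1, Socs2, Socs3, Socs5, Socs7 and Cish. They were taken by gene symbol and not by a rule on measured values, although earlier results of these data were known. All 10 were found among the 23305 genes of the RNA-seq tables. The comparison asks how the RNA levels of these genes differ between follicular B cells with and without Ets1, a transcription factor of the ETS family.

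RNA was sequenced from quiescent follicular B cells of the spleen, with 2 libraries from wild-type (WT) mice of the C57BL/6 strain and 2 from Ets1-/- mice of the C57BL/6 x 129Sv background. All mice were female, none was given a treatment that the sources describe, and their ages were not given. Live cells were sorted as B220+ with high CD23 and low CD21, and cells carrying CD80 or switched immunoglobulin (IgA, IgE or IgG) were left out. The allele is a deletion carried in every cell of the mouse, so the B cells developed in an Ets1-/- host. The genotypes differ in strain background as well as in Ets1, and the contributions of strain and genotype cannot be told apart. The libraries are described as biological replicates, and the number of animals behind each was not given.

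JAK kinases bind the inner tails of cytokine receptor chains. When a cytokine draws the chains together, the kinases phosphorylate each other, the receptor and the STAT transcription factors, which then enter the nucleus. Among the genes that STATs switch on are Cish and several Socs genes, whose proteins block the kinase or the receptor, or hand them to a ubiquitin ligase through the SOCS box. Mature B cells use this pathway to respond to IL-4, IL-21, interferons and other cytokines.

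The values are FPKM, in which fragments are divided by the length of the transcript and by the mapped total of the library, so levels of different genes can be compared per length. The tables used here hold no fragment counts. The depth relative to WT replicate 1, estimated from the steps between low values, was 1.71 in WT replicate 2, 1.65 in Ets1-/- replicate 1 and 0.850 in Ets1-/- replicate 2. Genotypes were compared with limma on log2(FPKM + 1) over the 10949 genes with a mean of at least 1 FPKM in either genotype. A gene was called changed at a log2 fold change of at least 1 in size and a Benjamini-Hochberg adjusted p of at most 0.05. Of these 10949 genes, 186 were called, which is 1.7%. The summed FPKM of 10 follicular B cell markers ranged from 18299 to 21486 over the 4 libraries, of which Cd74 alone gave 11572 to 14863. Cr2, the gene of the sort marker CD21, stood at 102 and 116 FPKM in WT and 65.1 and 30.0 FPKM in Ets1-/- cells. Cd79a, a chain of the B cell receptor, stood at 1923 and 2051 against 1407 and 1639 FPKM. These 2 markers were lower without overlap, and 2 were higher, Cd74 and Blk (267 and 263 against 284 and 346 FPKM). Of the 10 markers, 0 were called. Ets1 itself stood at 231 and 275 FPKM in WT and 229 and 229.8 FPKM in Ets1-/- cells, and a value over the whole gene does not check a deletion of a few exons.

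None of the members passed the test for change. In both Ets1-/- libraries the inhibitors Socs3 and Socs1 lay above both WT libraries, and each had a mean more than 2 times its WT mean, while Socs5 and Jak2 lay below both. Jak1 and Jak3 were also lower without overlap, by smaller amounts. The plot of the members' FPKM by library shows these levels. In mm9 the genes whose positions are not given with their values below are Jak2 (chr19:29326318-29387570, plus strand), Socs1 (chr16:10783901-10785629, minus), Socs2 (chr10:94847996-94879814, minus), Socs3 (chr11:117827393-117831361, minus), Socs5 (chr17:87507019-87536923, plus) and Socs7 (chr11:97223865-97259856, plus).

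**Figure D1:**
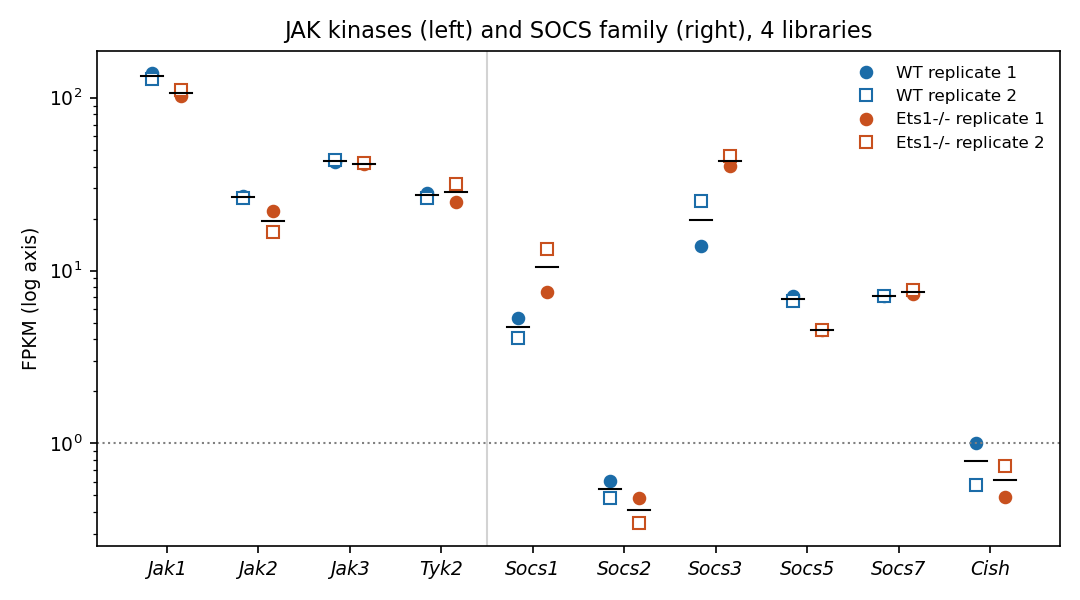
FPKM of the 10 members (log axis) in each of the 4 libraries, with WT in blue, Ets1-/- in orange, black bars for genotype means and a dotted line at 1 FPKM. Socs3 and Socs1 sit higher in both Ets1-/- libraries, Jak1, Jak2 and Socs5 sit lower, and Socs2 and Cish have means under 1 FPKM.

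Among the kinases Jak1 was the most abundant. Jak1 pairs with the receptors of interferons, of IL-6 and of the cytokines that use the common gamma chain. Its FPKM was 139 and 128 in the WT replicates and 103 and 111 in the Ets1-/- replicates. Both Ets1-/- values lay below both WT values, and the WT mean was 1.25 times the Ets1-/- mean. The log2 fold change was -0.32 (SE 0.15, 95% interval -0.70 to 0.06, limma adjusted p = 0.467). Jak1 lies on chr4:100824972-100937887 of mm9, minus strand, and its exons touch an exon of Raver2 on the opposite strand, which stood at 0.184 to 0.305 FPKM.

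Jak2 transmits signals of interferon gamma, IL-12 and the growth hormone and erythropoietin receptors. It stood at 27.0 and 26.2 FPKM in WT and at 22.0 and 16.7 FPKM in Ets1-/- cells. The groups did not overlap, and the Ets1-/- replicates differed from each other more than the WT replicates did (26.6 ± 0.567 against 19.3 ± 3.73, SD, n = 2 each). The log2 fold change was -0.45 (SE 0.17, 95% interval -0.90 to -0.01), the limma adjusted p was 0.366 and the unadjusted p was 0.0477. Without Ets1-/- replicate 2 the log2 fold change of Jak2 was -0.26.

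Jak3 binds only the common gamma chain, Il2rg, which IL-2, IL-4, IL-7, IL-9, IL-15 and IL-21 share. Its values were 42.6 and 43.75 FPKM in WT and 41.4 and 41.7 FPKM in Ets1-/- cells. The Ets1-/- values were lower without overlap by a narrow margin, and the log2 fold change was -0.05 (95% interval -0.39 to 0.28, limma adjusted p = 0.943). Jak3 lies on chr8:74200195-74214474 of mm9, plus strand, where its exons overlap those of Insl3 on the same strand. Insl3 was listed at 9.83 and 9.98 FPKM in WT and 6.85 and 8.16 FPKM in Ets1-/- cells, and how fragments in the overlap were assigned is not given in the sources used here.

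Tyk2 serves the receptors of type I interferons, IL-10 and IL-12. It stood at 28.2 and 26.3 FPKM in WT and at 25.1 and 31.8 FPKM in Ets1-/- cells, so that the WT values lay between the Ets1-/- values. Its log2 fold change was 0.05 (95% interval -0.38 to 0.48, limma adjusted p = 0.969). Tyk2, on chr9:20908521-20931790 of mm9, minus strand, lies 11.5 Mb from Ets1 on the same chromosome.

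Socs3 blocks JAKs bound to receptors such as gp130, the signalling chain of the IL-6 family. Its FPKM was 13.8 and 25.4 in the WT replicates and 40.5 and 45.9 in the Ets1-/- replicates. Both Ets1-/- libraries were higher than both WT libraries, and the WT replicates differed from each other 1.84-fold. The means were 19.6 ± 8.18 FPKM in WT and 43.2 ± 3.83 FPKM in Ets1-/- cells (SD, n = 2 each), a ratio of 2.20. The log2 fold change of 1.16 (SE 0.30, 95% interval 0.40 to 1.91) passed the threshold on size but not the one on the adjusted p, which was 0.167 in limma, and the unadjusted p was 0.0108. Without WT replicate 1 the log2 fold change was 0.74, and without WT replicate 2 it was 1.57.

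Socs1 inhibits JAKs at interferon and common gamma chain receptors. It stood at 5.28 and 4.10 FPKM in WT and at 7.54 and 13.4 FPKM in Ets1-/- cells. The groups did not overlap, and here it was the Ets1-/- replicates that differed from each other, by 1.77-fold. The ratio of the means, 10.5 ± 4.13 against 4.69 ± 0.841 FPKM (SD, n = 2 each), was 2.23. The log2 fold change was 0.97 (SE 0.29, 95% interval 0.24 to 1.70), the limma adjusted p was 0.221 and the unadjusted p was 0.0191. It was 0.59 without Ets1-/- replicate 2 and 1.35 without Ets1-/- replicate 1.

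Promoters from RefSeq (GRCm38.p6, 250 bases before to 50 bases after the start) were found for Jak1, Jak2, Jak3, Tyk2, Socs1, Socs3 and Cish, 7 of the 10 members. They were searched on both strands for the ETS core CCGGAA and for the STAT motif TTC, any 3 or any 4 bases, GAA. The STAT motif reads the same on both strands, and no match overlapped another motif. The 3 promoters printed here were chosen because they held a match, and capitals mark the matched bases. They are Socs1 on chr16:10785487-10785786, minus strand, Socs3 on chr11:117969317-117969616, minus strand, and Cish on chr9:107296409-107296708, plus strand, each read 5′ to 3′ along its gene.
Socs1: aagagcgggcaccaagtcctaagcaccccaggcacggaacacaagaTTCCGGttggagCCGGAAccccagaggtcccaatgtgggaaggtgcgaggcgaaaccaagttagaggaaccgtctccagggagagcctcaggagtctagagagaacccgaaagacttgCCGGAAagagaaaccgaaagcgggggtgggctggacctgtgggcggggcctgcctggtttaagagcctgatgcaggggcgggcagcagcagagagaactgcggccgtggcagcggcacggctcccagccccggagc
Socs3: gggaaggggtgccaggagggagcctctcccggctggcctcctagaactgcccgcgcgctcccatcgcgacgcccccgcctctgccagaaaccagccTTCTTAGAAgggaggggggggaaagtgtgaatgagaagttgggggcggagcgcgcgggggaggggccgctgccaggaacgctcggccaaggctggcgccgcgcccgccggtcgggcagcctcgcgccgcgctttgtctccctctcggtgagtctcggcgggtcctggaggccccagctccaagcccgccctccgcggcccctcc
Cish: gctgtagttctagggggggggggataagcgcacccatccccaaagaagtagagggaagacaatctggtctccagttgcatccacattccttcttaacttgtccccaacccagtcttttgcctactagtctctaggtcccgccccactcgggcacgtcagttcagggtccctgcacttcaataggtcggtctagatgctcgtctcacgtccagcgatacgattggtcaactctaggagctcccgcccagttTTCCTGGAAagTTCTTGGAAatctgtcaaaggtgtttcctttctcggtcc

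The Socs1 promoter held 3 matches of CCGGAA, the first of them on the opposite strand, at 204, 192 and 86 bases before the start. Of all 32851 RefSeq promoters of this length in the table, 14.9% held the ETS core at least once and 0.852% held it at least 3 times. The Socs3 promoter held TTCTTAGAA at 154 bases before the start. The Cish promoter held TTCCTGGAA at its start and TTCTTGGAA beginning 11 bases after it. TTCNNNGAA was present in 8.3% of all promoters, and at least 2 matches were present in 0.457%. TTCNNNNGAA was present in 6.95% of all promoters and in no member, and the promoters of the 4 kinases held no match of any of these motifs. The plot of motif positions shows the matches along the 7 promoters.

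**Figure D2:**
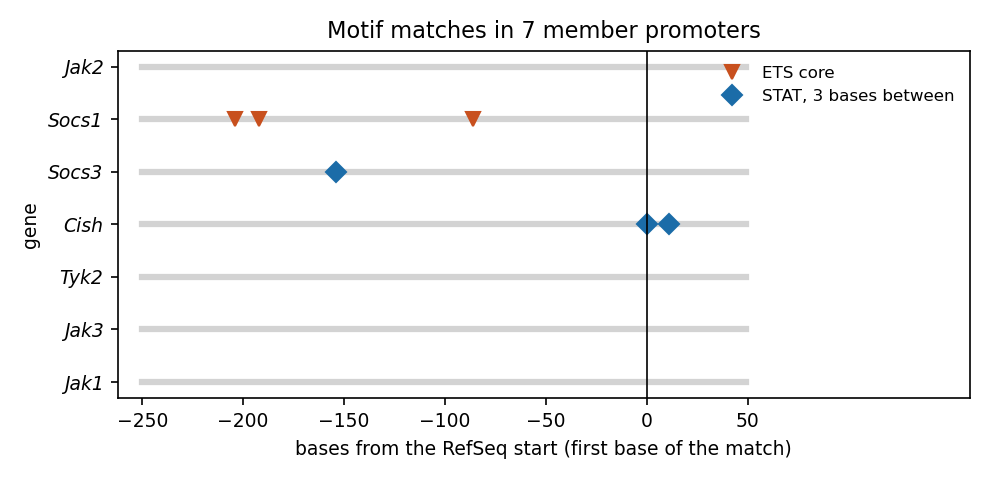
Positions of motif matches in the RefSeq promoters of 7 members, in bases from the start on the horizontal axis, with grey bars for the bases searched. Triangles mark the ETS core (3 in Socs1), diamonds mark the STAT motif with 3 bases between its arms (1 in Socs3, 2 in Cish), and the kinases have none.

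Cish, which blocks STAT5-activating receptors, was near the limit of what was measured. It was listed at 1.01 and 0.574 FPKM in WT and at 0.489 and 0.739 FPKM in Ets1-/- cells. The groups overlapped, and the mean was under 1 FPKM in both genotypes, so that Cish was outside the fit. Cish lies on chr9:107198357-107205115 of mm9, plus strand, where its exons overlap those of Gm17040 and Gm17041 on the opposite strand. In a fit without a filter its log2 fold change was -0.14 (SE 0.16, limma adjusted p = 0.837).

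Socs2, best known as the inhibitor of growth hormone signalling, was the lowest member. Its values were 0.602 and 0.485 FPKM in WT and 0.481 and 0.345 FPKM in Ets1-/- cells. The groups met almost exactly, with the higher Ets1-/- value just under the lower WT value. Without a filter the log2 fold change of Socs2 was -0.13 (SE 0.08, limma adjusted p = 0.677).

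Socs5, an inhibitor with a long amino-terminal region, was steady within each genotype. It stood at 7.15 and 6.63 FPKM in WT and at 4.52 and 4.54 FPKM in Ets1-/- cells. Both Ets1-/- values lay below both WT values, and the WT mean was 1.52 times the Ets1-/- mean (6.89 ± 0.365 against 4.53 ± 0.0141, SD, n = 2 each). The log2 fold change was -0.51 (SE 0.14, 95% interval -0.87 to -0.16), the limma adjusted p was 0.189 and the unadjusted p was 0.0135.

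Socs7, of which less is known in B cells, stood at 7.10 and 7.08 FPKM in WT and at 7.29 and 7.71 FPKM in Ets1-/- cells. The Ets1-/- values were higher without overlap by a ratio of means of 1.06, and the log2 fold change was 0.07 (95% interval -0.27 to 0.42, limma adjusted p = 0.916).

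All 8 fitted members had a mean of at least 1 FPKM in both genotypes, so none entered through only the group in which it was high. limma called 0 of the 8 fitted members, against 1.7% of all genes fitted. An unadjusted p under 0.05 was reached by 4 of them, Socs1 and Socs3 with higher means and Jak2 and Socs5 with lower means in Ets1-/- cells, against 13.3% of all genes fitted. The groups did not overlap for 7 of the 8, against 41.6% of all genes fitted. Of these, 3 were higher in Ets1-/- cells and 4 were lower, against 19.4% and 22.2% of all genes fitted, and Jak3 and Socs7 were among them with means that differed 1.04-fold and 1.06-fold. The median log2 fold change was -0.19 over the 4 kinases and 0.52 over the 4 fitted SOCS members, beside -0.02 over all genes fitted. The value of 0.52 lies between Socs7 at 0.07 and Socs1 at 0.97, and Socs5 was at -0.51. Socs4 and Socs6, which are not members, were at -0.12 and 0.13. The plot of changes with their intervals gives the 8 fitted members.

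**Figure D3:**
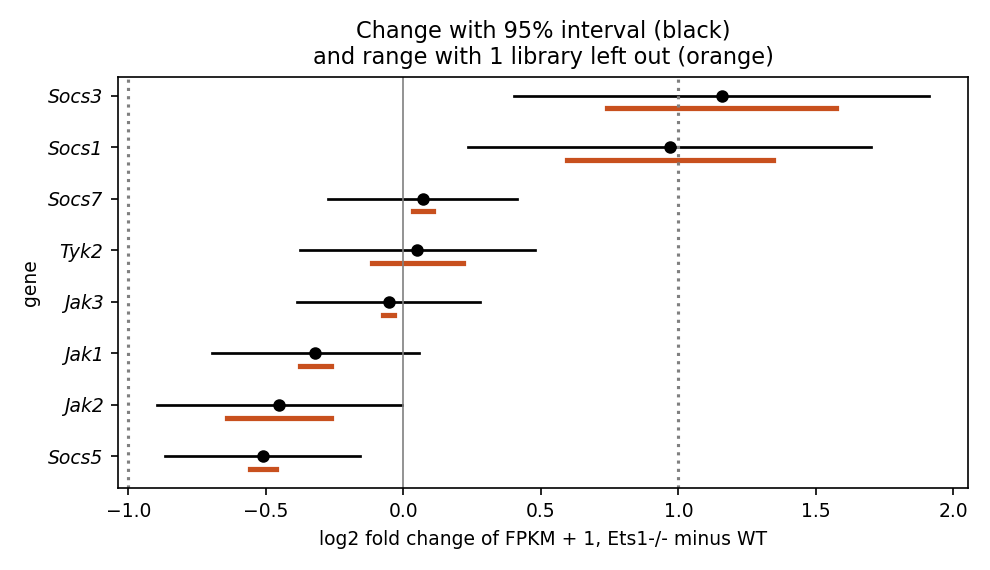
log2 fold change of FPKM + 1 (Ets1-/- minus WT) for the 8 fitted members, with the 95% interval from limma in black and the range of the values with 1 library left out in orange. The intervals of Socs3, Socs1, Jak2 and Socs5 lie to one side of 0, and the range with 1 library left out crosses 0 for Tyk2.

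The order of levels in WT cells was Jak1, Jak3, Tyk2, Jak2, Socs3, Socs7, Socs5, Socs1, Cish and Socs2. The neighbours Tyk2 and Jak2, Socs7 and Socs5, and Cish and Socs2 did not differ beyond the spread of their replicates. In Ets1-/- cells the order was Jak1, Socs3, Jak3, Tyk2, Jak2, Socs1, Socs7, Socs5, Cish and Socs2. There Socs3 and Jak3, and Socs1 and Socs7, did not differ beyond their spread. Socs3 thus stood in place 5 of the members in WT cells and in place 2 in Ets1-/- cells, and Socs1 stood in places 8 and 6. Jak1 was above 97.3% of all genes by its mean level in WT cells and above 96.5% in Ets1-/- cells. Socs3 was above 81.3% of genes in WT cells and 90.9% in Ets1-/- cells.

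Summed over the 4 kinases, the level was 236 and 225 FPKM in the WT replicates and 191 and 201 FPKM in the Ets1-/- replicates. Summed over the 6 member inhibitors, without Socs4 and Socs6, it was 35.0 and 44.2 FPKM in WT and 60.8 and 72.6 FPKM in Ets1-/- cells. The kinase sum was therefore 6.76 and 5.08 times the inhibitor sum in WT cells and 3.14 and 2.77 times in Ets1-/- cells, with no overlap between the genotypes. Most of the difference in the inhibitor sum was Socs3, which made up 39.5% and 57.4% of it in WT cells and 66.6% and 63.2% in Ets1-/- cells. Without Socs3 the inhibitor sums were 21.1 and 18.9 FPKM in WT and 20.3 and 26.7 FPKM in Ets1-/- cells, which overlap. Jak1 made up 53.7% to 58.6% of the kinase sum in every library.

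Socs3 is also an early response gene, induced within a short time of many stimuli, and was set beside 14 immediate early genes such as Fos, Egr1 and Dusp1. Their summed level was 3411 and 5440 FPKM in WT and 7802 and 8361 FPKM in Ets1-/- cells. Like Socs3, 12 of the 14 were higher in WT replicate 2 than in WT replicate 1, with a median ratio of 1.80 beside 1.84 for Socs3. Of these genes 8 were at least 1.5 times higher in WT replicate 2, compared with 4.86% of all genes fitted. Between the Ets1-/- replicates 7 of the 14 were higher in replicate 2. Of the 14, 10 were higher in Ets1-/- cells without overlap and 0 were lower, against 19.4% and 22.2% of all genes fitted. Their median log2 fold change was 0.78. limma called 0 of them, and 6 had an unadjusted p under 0.05, against 1.7% and 13.3% of all genes fitted. The 3 with the lowest p were Dusp1 (136 and 244 FPKM in WT, 603 and 481 FPKM in Ets1-/- cells, adjusted p = 0.109), Egr1 (132 and 250.2 against 636 and 462 FPKM, adjusted p = 0.133) and Fos (687 and 1283 against 2120 and 2307 FPKM, adjusted p = 0.204). Over 13 alternatives the log2 fold change ranged from 1.14 to 1.97 for Dusp1, from 1.11 to 2.03 for Egr1 and from 0.79 to 1.68 for Fos. The part of these genes' variation in the levels of Socs3 and Socs1 was not tested. The plot of Socs1 and Socs3 over these genes shows the 4 libraries side by side.

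**Figure D4:**
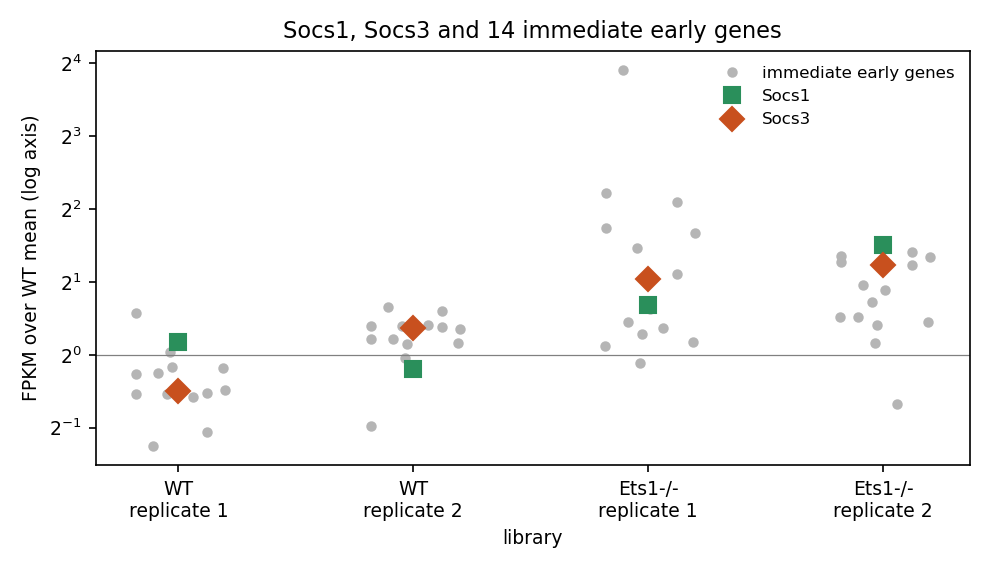
FPKM of Socs1, Socs3 and 14 immediate early genes divided by each gene's WT mean (log axis), in each of the 4 libraries, with grey points for the immediate early genes. The immediate early genes spread widely, and Socs3 lies within their range in every library. Socs1 also lies within it except in Ets1-/- replicate 2, where it is the highest point.

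RNA of other cell types also differed between the libraries. Among all genes fitted, 19.4% were higher and 22.2% lower in Ets1-/- cells without overlap. All 11 neutrophil markers measured were higher in both Ets1-/- libraries, 3 of them called, and their sum was 116 and 94.7 FPKM in WT and 2576 and 707 FPKM in Ets1-/- cells. The sums of 9 monocyte or macrophage markers were 65.2 and 31.9 FPKM in WT and 151 and 95.8 FPKM in Ets1-/- cells, with 2 higher without overlap and 1 called. The 2 were Lyz2 (42.2 and 18.0 against 102 and 45.7 FPKM) and Emr1 (2.35 and 2.63 against 23.5 and 37.2 FPKM), and Emr1 was the one called. The sums of 6 red cell markers were 6.22 and 4.84 against 87.9 and 27.6 FPKM, with 4 higher without overlap. The sums of 10 T cell markers were 353 and 354 against 309 and 391 FPKM. Of these sums Cd2 alone gave 190 and 219 against 194 and 244 FPKM. Of the 10, 4 were lower and 1 higher without overlap, and 1 was called, Thy1 (17.4 and 16.2 against 3.38 and 3.39 FPKM). The sums of 6 NK cell markers were 30.8 and 18.0 against 6.24 and 13.2 FPKM, with 5 lower without overlap. The sums of 6 plasma cell markers were 168 and 189 FPKM in WT and 138 and 152 FPKM in Ets1-/- cells, with 3 lower and 2 higher without overlap. The higher ones were Sdc1 (7.11 and 5.13 against 9.72 and 19.8 FPKM) and Prdm1 (0.580 and 0.672 against 1.68 and 1.48 FPKM). The lower ones were Irf4 (47.3 and 73.4 against 45.2 and 23.0 FPKM), Xbp1 (49.2 and 42.4 against 33.8 and 37.2 FPKM) and Tnfrsf17 (0.386 and 0.528 against 0.0926 and 0.353 FPKM). The sums of 6 dendritic cell markers were 5.49 and 4.65 against 7.29 and 6.82 FPKM, with 4 higher without overlap, and those of 4 platelet markers were 0.917 and 1.01 against 1.89 and 1.32 FPKM, with 2 higher. The sums of 5 marginal zone B cell markers were 601 and 746 against 614 and 677 FPKM, which overlap. Of these sums Plac8 alone gave 505 and 630 against 526 and 610 FPKM. Of the 5, 1 was lower without overlap, Dtx1 (63.6 and 78.9 against 48.8 and 40.8 FPKM). Of the measured markers on these lists 0 were at 0 in all libraries. Socs3 and Socs1 were higher in Ets1-/- replicate 2, which had the lower neutrophil and monocyte sums, than in Ets1-/- replicate 1. Of the monocyte or macrophage markers, Emr1 was also higher in Ets1-/- replicate 2, and the others were lower there. Without Ets1-/- replicate 1 the log2 fold changes were 1.25 for Socs3 and 1.35 for Socs1. Both Ets1-/- libraries had higher neutrophil and monocyte sums than both WT libraries. The part of other cells' RNA in the levels of Socs3 and Socs1 was not tested. In sorted bulk samples a change in the share of a cell type and a change in RNA per cell cannot be told apart.

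Upstream of the kinases, 24 of 34 JAK-coupled receptor chains were in the fit, and 1 was called. Il9r, the IL-9 receptor chain that signals through Jak1, fell from 50.2 and 43.5 FPKM in WT to 1.76 and 1.54 FPKM in Ets1-/- cells, a 28.4-fold lower mean (log2 fold change -4.17, SE 0.15, limma adjusted p = 0.00163). The next by p were Il6ra, the IL-6 receptor, at 12.9 and 10.7 against 4.99 and 5.21 FPKM (log2 fold change -1.06, adjusted p = 0.0507), and Ifngr1, the ligand-binding interferon gamma receptor chain, at 40.4 and 41.5 against 26.3 and 24.8 FPKM (log2 fold change -0.66, adjusted p = 0.0969). Both lay without overlap below WT, and neither passed the test, although Il6ra was called in 5 of 13 alternatives. Il2rg, the partner of Jak3, stood at 321 and 278 FPKM in WT and 242 and 262 FPKM in Ets1-/- cells, and Il4ra, which pairs with it for IL-4, stood at 106 and 102 against 125 and 173 FPKM. Of the 24 chains, 7 were higher and 7 lower without overlap, against 19.4% and 22.2% of all genes fitted. Their median log2 fold change was 0.02.

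Downstream of the kinases, all 7 STAT genes were fitted and 0 were called by limma, with 1 at an unadjusted p under 0.05. This was Stat4, the factor activated by IL-12 through Jak2 and Tyk2, at 25.7 and 23.8 FPKM in WT and 10.95 and 6.41 FPKM in Ets1-/- cells (log2 fold change -1.45, adjusted p = 0.0736). Stat4 was called in 4 of 13 alternatives, among them the fit without Ets1-/- replicate 1 and the fit with a replicate block (limma adjusted p = 0.0189). Stat2, which carries type I interferon signals, had a log2 fold change of 0.23 (adjusted p = 0.668) and was higher without overlap. The median over the 7 STAT genes was -0.01. Of the 7, 3 were higher and 1 lower without overlap, against 19.4% and 22.2% of all genes fitted.

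Among 20 genes known to be induced through STATs, 1 was called. Ccnd2, a D-type cyclin, rose from 11.9 and 11.1 FPKM in WT to 25.8 and 24.0 FPKM in Ets1-/- cells (log2 fold change 1.05, limma adjusted p = 0.0383), and the call was lost with any 1 library left out. Gbp2, an interferon-induced GTPase, and Id2, an inhibitor of E proteins, had log2 fold changes of 1.24 (adjusted p = 0.0562) and 1.07 (adjusted p = 0.0809). Gbp2 was called in 4 of 13 alternatives, among them the fit without Ets1-/- replicate 1, and Id2 in 2. Of the 20, 6 were higher and 3 lower without overlap, against 19.4% and 22.2% of all genes fitted. Their median log2 fold change was 0.04.

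Other inhibitors of the pathway showed no call among 15 genes in limma, with 2 at an unadjusted p under 0.05. These were the ubiquitin ligase Cbl (log2 fold change -0.49, adjusted p = 0.325) and the phosphatase Ptpn1 (0.41, adjusted p = 0.365), followed by Pias3, an inhibitor of STAT3 (0.24, adjusted p = 0.578). The remaining SOCS genes are on this list. Socs4 stood at 15.8 and 16.6 FPKM in WT and 18.1 and 12.1 FPKM in Ets1-/- cells, and Socs6 at 6.23 and 5.82 against 6.58 and 6.84 FPKM. The 15 had a median log2 fold change of 0.01. Without overlap 4 were higher and 1 lower, against 19.4% and 22.2% of all genes fitted. The plot of the pathway lists sets these groups beside the members.

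**Figure D5:**
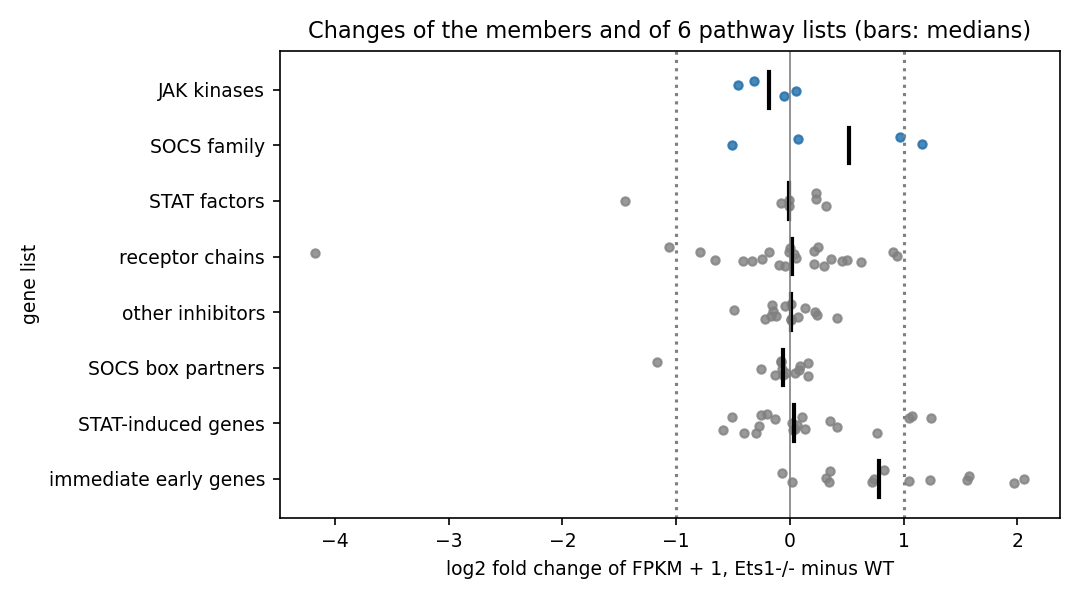
log2 fold change of FPKM + 1 (Ets1-/- minus WT) of each fitted gene in the JAK kinases, the SOCS members and 6 pathway lists. Black bars mark medians, dotted lines mark -1 and 1, and Socs4 and Socs6 are among the other inhibitors. Il9r is the point farthest left, among the receptor chains, and the immediate early genes have the highest median.

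The genes closest to Socs3 across the 4 libraries, by Euclidean distance of log2(FPKM + 1), were Ngfrap1 (distance 0.446), Dusp4 (0.607) and Mcoln2 (0.726). Dusp4, a phosphatase of MAP kinases, stood at 15.4 and 17.2 FPKM in WT and 34.9 and 41.8 FPKM in Ets1-/- cells and was called (limma adjusted p = 0.0420). Those closest to Socs5 were Zfp94 (0.0653), Nif3l1 (0.0811) and Zfp526 (0.184), each lower in both Ets1-/- libraries and none of them called by limma. The distance rests on 4 libraries and draws on both the level of a gene and its difference between the genotypes.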

How the data were processed

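RNA from 2 WT and 2 Ets1-/- sorts was made into libraries with an Illumina TruSeq kit. The authors aligned the reads to mm9 with TopHat2 2.0.13, estimated expression with Cuffdiff and deposited 1 FPKM value per gene symbol and library. The gene annotation, any further scaling between libraries, the use of strand and the Cuffdiff version are not given in the sources used here, so values of overlapping genes are uncertain.

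Of 23309 entries per library, 4 shared a symbol with another entry and were dropped, and 23305 genes remained. Since the tables hold FPKM and not counts, limma 3.58.1 in R 4.3.3 (lmFit, eBayes with trend) was fitted to log2(FPKM + 1) for the 10949 genes with a mean of at least 1 FPKM in either genotype. There were 2 residual and 3.1 prior degrees of freedom, and the Benjamini-Hochberg adjustment ran over all genes fitted. Every log2 fold change is on the log2(FPKM + 1) scale, which understates changes of low genes. The paper gives the reads per sample only as a range over its samples. The depth of each library is therefore known only relative to WT replicate 1. It came from 602 to 806 genes of low value per library, of which 28.9% to 41.4% lay near the shared step. Precision is given as the SD of 2 replicates and the standard error of the fit. A permutation test of 2 samples against 2 cannot reach a p under 0.05 and was not used.

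The members and the gene lists were chosen with earlier results of these data known. All members are named, and from each list every called gene and, where fewer than 3 were called, the genes of lowest unadjusted p up to 3, except 1 gene that is not reported here. Il2rg, Il4ra, Socs4, Socs6, Cd74, Blk, Cr2, Cd79a, Cd2, Thy1, Dtx1, Plac8, Lyz2, Emr1, Sdc1, Prdm1, Irf4, Xbp1 and Tnfrsf17 were named after their values were seen. Neighbouring levels were said to differ where the values of the 2 genes did not overlap. Positions came from GENCODE M1 (mm9) and promoters from RefSeq (GRCm38.p6). Alternatives covered the pseudocount, the filter, the scaling, robust variance estimation, the fold minimum, the replicate block and each library left out. A crossed pairing was added after the data were seen. The alternatives counted for single genes include this crossed pairing and leave out the fold minimum. The replicate numbers of the labels are shared between the genotypes and nothing describes a pairing. Means, sums and distances came from Python 3.11.15, numpy 2.4.6 and pandas 2.3.3. Protein sequences were not used here.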

Additional observations from a re-analysis of the deposited data

How the results depend on the processing

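The 8 fitted members were recomputed under 13 alternatives each, and 7 kept their sign in all of them. The exception was Tyk2, whose log2 fold change of 0.05 became -0.11 without Ets1-/- replicate 2 and 0.22 without Ets1-/- replicate 1. With 1 library left out the log2 fold change ranged from 0.74 to 1.57 for Socs3 and from 0.59 to 1.35 for Socs1, with no call. The count of all genes called by limma, 186, became 75 without a filter, 305 with robust variance estimation and 130 to 144 with 1 library left out. The count of called genes on the pathway lists, 2, became 1 without a filter, 8 with robust variance estimation and 1 to 5 with 1 library left out. The causes were not tested. Il9r was called in all 13 alternatives, Ccnd2 in 7, Il6ra in 5 and Stat4 in 4. Upper-quartile scaling left 6 members without overlap in place of 7. Values below 1 FPKM, as for Socs2 and Cish, rest on few fragments.

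A replicate block on the label numbers called 266 genes, 4 genes of the pathway lists and 0 members. The 4 were Il9r, Stat4, Gbp2 and Dusp1, without Ccnd2. Socs3 had an adjusted p of 0.0524 in limma. Deviations of same-numbered samples correlated at -0.21 across genes, which gives no sign of pairing by number. With 2 libraries per genotype, the correlation for samples of unlike number has the same size and the opposite sign. It therefore cannot speak against a pairing in the crossed order. A crossed pairing, chosen after seeing the data, called 409 genes, 12 genes of the pathway lists and 1 member, Socs3.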

Other observations

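The SOCS box recruits a ubiquitin ligase built on Cul5, and 13 of 15 genes for its parts and for other SOCS box proteins were in the fit. limma called 0 of them, and their median log2 fold change was -0.06. Without overlap 1 was higher and 2 were lower, against 19.4% and 22.2% of all genes fitted. An unadjusted p under 0.05 was reached by 1 gene. That gene was Asb2, a substrate receptor with a SOCS box, at 1.96 and 2.38 FPKM in WT and 0.532 and 0.302 FPKM in Ets1-/- cells (log2 fold change -1.16, adjusted p = 0.0564), and it was called in 3 of 12 alternatives. Asb8 had a log2 fold change of -0.25 (adjusted p = 0.594). Tceb2, which encodes elongin B, the adaptor that holds the SOCS box, had a log2 fold change of 0.15 (adjusted p = 0.841) at 202 and 215 FPKM in WT and 210.3 and 256 FPKM in Ets1-/- cells.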
